A study of Mus musculus with 6 samples.

Results

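Markers of the capillary endothelial cell types of the lung were examined in RNA-Seq of isolated lung endothelial cells (iLECs), which are cells captured from lung digests by beads that bind the endothelial surface protein CD31. The members are 10 genes that were chosen by name as markers, with earlier results of these data known. They comprise 7 markers of aerocytes (*Car4*, *Ednrb*, *Fibin*, *Chst1*, *Emp2*, *Prx* and *Apln*) and 3 of general capillary cells (*Kit*, *Plvap* and *Aplnr*). All 10 were found among the 24972 gene symbols of the table, and all 10 passed the filter on low values. The study asked how endothelial loss of *Atp6ap2*, which encodes an accessory protein of the vacuolar proton pump that also binds prorenin, changes gene expression. Both genotypes received tamoxifen (100 μg) daily from P1 to P3 and were sampled at P7, and each has 3 samples with 1 library each. Control mice are labelled PRR (Atp6ap2)fl/Y and carry the floxed allele without Cre. The *Atp6ap2* iECKO mice are labelled PRR (Atp6ap2)fl/Y; Cdh5-CreERT2+, so a recombinase that tamoxifen activates is made under the *Cdh5* promoter, which is active in endothelium. Controls carry no Cre, and in these libraries the effect of Cre itself therefore cannot be told apart from that of the deletion. For the retina, the study reports no significant change of vascular outgrowth in mice with Cre but without the deletion. The labels give the strain as C57BL/6, whereas the methods describe a mixed background of CD1 and C57BL/6. The study describes the 3 samples of a genotype as biological replicates. No source used here says whether lungs were pooled for a sample, so the spread between libraries may not be that between single mice.

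The alveolar capillaries of the lung are lined by intermingled endothelial cell types. Aerocytes, also called aCap cells, are large, thin cells specialized for gas exchange, whereas general capillary cells, or gCap cells, regulate vasomotor tone and act as progenitors that renew the capillary and give rise to aerocytes. The types also carry complementary signalling molecules, since aerocytes make the peptide apelin and general capillary cells carry its receptor.

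In brief, deletion of *Atp6ap2* was accompanied by opposite changes of 2 aerocyte markers. *Apln* rose and *Fibin* fell in *Atp6ap2* iECKO iLECs, while *Car4*, *Ednrb*, *Chst1*, *Emp2* and *Prx* did not pass the test. With each library left out in turn, *Fibin* passed in all 6 fits but *Apln* in only 1. Among all genes tested, 8.25% passed. All 3 general capillary markers had lower mean levels, with log2 fold changes from -0.41 to -0.26, but none passed the test.

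The sequences of the genes that passed the test are shown to identify the transcripts and their start regions. The RefSeq promoter table for GRCm38.p6 held entries for 8 of the 10 members, each with 250 bases before and 50 bases after the transcription start. It had no entry for *Plvap* or *Aplnr*. Both promoters below are on the minus strand and are written 5′ to 3′, that of *Apln* at chrX:48034804-48035103 and that of *Fibin* at chr2:110362944-110363243. Capitals mark matches to any of 4 motifs searched on both strands, which were AGGAAG (an ETS core), ACGTG (the core of the hypoxia response element), AACAAT (a SOX core) and GGTGTGA (a T-box half-site). The coding sequence of *Apln*, from the GENCODE annotation of GRCm38 on chromosome X between 48028299 and 48034505, has 234 bases including the stop codon. Its capitals mark the 13 codons before the stop, which encode the C-terminal peptide that activates the apelin receptor.
*Apln* promoter: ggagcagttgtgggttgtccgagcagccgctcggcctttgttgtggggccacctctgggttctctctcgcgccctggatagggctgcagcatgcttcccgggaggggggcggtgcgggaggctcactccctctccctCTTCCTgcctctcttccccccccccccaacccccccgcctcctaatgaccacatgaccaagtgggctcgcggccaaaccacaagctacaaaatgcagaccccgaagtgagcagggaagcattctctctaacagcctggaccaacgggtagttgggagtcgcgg
*Fibin* promoter: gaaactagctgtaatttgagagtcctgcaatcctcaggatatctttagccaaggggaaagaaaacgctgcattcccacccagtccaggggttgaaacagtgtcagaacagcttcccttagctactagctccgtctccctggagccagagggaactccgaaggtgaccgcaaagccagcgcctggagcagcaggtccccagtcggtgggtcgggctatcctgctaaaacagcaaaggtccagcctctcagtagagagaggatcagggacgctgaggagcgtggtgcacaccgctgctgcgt
*Apln* coding sequence: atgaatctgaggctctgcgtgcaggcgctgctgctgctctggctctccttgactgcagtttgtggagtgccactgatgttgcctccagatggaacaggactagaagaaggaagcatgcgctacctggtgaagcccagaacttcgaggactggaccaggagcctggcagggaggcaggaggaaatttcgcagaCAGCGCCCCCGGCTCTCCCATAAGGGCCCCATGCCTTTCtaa
The single capitalized stretch in the *Apln* promoter is an ETS core in reverse orientation, which starts 113 bases before the transcription start. An ETS core was present in 3 of the 8 member promoters (*Apln*, *Chst1* and *Kit*) and in 35.4% of all 32851 promoters in the table. The hypoxia response core was present in 1 member promoter, that of *Car4*, and in 19.6% of all promoters. The SOX core (10.7% of all promoters) and the T-box half-site (3.98%) were present in 0 of the 8. No motif overlapped another, and the *Fibin* window held none of the 4. The GENCODE annotation places the 5′ end of *Fibin* at chr2:110363183, which lies inside this window. Part of the bases before the start used here is therefore transcribed sequence in that annotation.

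Some features of the libraries bear on every result. *Atp6ap2* had normalized counts of 7490, 5815 and 5681 in controls and 4220, 2336 and 1982 in *Atp6ap2* iECKO replicates 1, 2 and 3, so the targeted gene was lowest in replicates 2 and 3 and the genotypes did not overlap. All 6 labels give an fl/Y genotype. *Xist*, the RNA of the inactive X chromosome, was nevertheless at 37704 to 47487 in 4 libraries, and it was near 0 only in control replicate 3 (31.7) and replicate 2 of the *Atp6ap2* iECKO group (19.3). The study analysed neonates of both sexes, and its definition of each group includes fl/fl females besides fl/Y males. No label gives the sex of these samples. For *Apln* and *Fibin* the adjusted *P* value is therefore also given with the presence of *Xist* as a covariate, and for other named genes it is given where the call was lost. The totals of normalized counts were between 26243878 and 28725799. Relative depth, judged by the most common low value of a library, was 1.00 to 1.04 in controls and 1.25 to 1.55 in *Atp6ap2* iECKO libraries. The 10 pan-endothelial markers, such as *Pecam1* and *Cdh5*, had summed levels of 254178 to 319098 in controls and 261111 to 295150 in *Atp6ap2* iECKO libraries, and their median log2 fold change was 0.02. Levels of fibroblast and mural cell markers were lower in *Atp6ap2* iECKO libraries. In bulk RNA, fewer cells of a type and less RNA per cell cannot be told apart.

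The abundance of the members is compared here as normalized count per kilobase of annotated exon. *Plvap*, whose product forms the diaphragms of endothelial caveolae and fenestrae, was the most abundant in controls at 12551 ± 1344 (SD, n = 3). *Prx* (4844 ± 635.5) and *Aplnr* (4543 ± 1036) followed, and their control libraries overlapped. *Emp2* came next at 2278 ± 222.4. The levels of *Kit* (1780 ± 58.6), *Apln* (1714 ± 126.5), *Ednrb* (1514 ± 517) and *Car4* (1331 ± 149.1) each overlapped with that of the gene beside them in this order. *Fibin* (510.2 ± 45.5) and *Chst1* (303.3 ± 58.0) were the least abundant and did not overlap. In *Atp6ap2* iECKO libraries *Apln* stood at 3196 ± 805 per kilobase, above *Emp2* (1960 ± 143.1) and without overlap between them, and *Car4* (1433 ± 127.6) stood above *Kit* (1407 ± 202.8) with overlap. *Fibin* was the lowest member there at 224.6 ± 57.0, below *Chst1* at 399.1 ± 55.1. All 10 markers were thus present in every library.

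Of all 14456 genes tested, 8.25% passed at an adjusted *P* value below 0.05 (3.28% higher and 4.97% lower in *Atp6ap2* iECKO iLECs). Among the members, 1 of 10 was higher and 1 lower. The 7 aerocyte markers had a median log2 fold change of 0.06 and the 3 general capillary markers one of -0.35, against 0.0049 over all genes tested. Genotypes did not overlap for 4 of the 10 members (*Apln*, *Fibin*, *Kit* and *Plvap*), 1 of them higher and 3 lower. Among all genes 29.8% did not overlap (14.7% higher and 15.0% lower). An unadjusted *P* value below 0.05 was reached by these 4 and *Chst1*, against 23.9% of all genes.

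**Figure D1:**
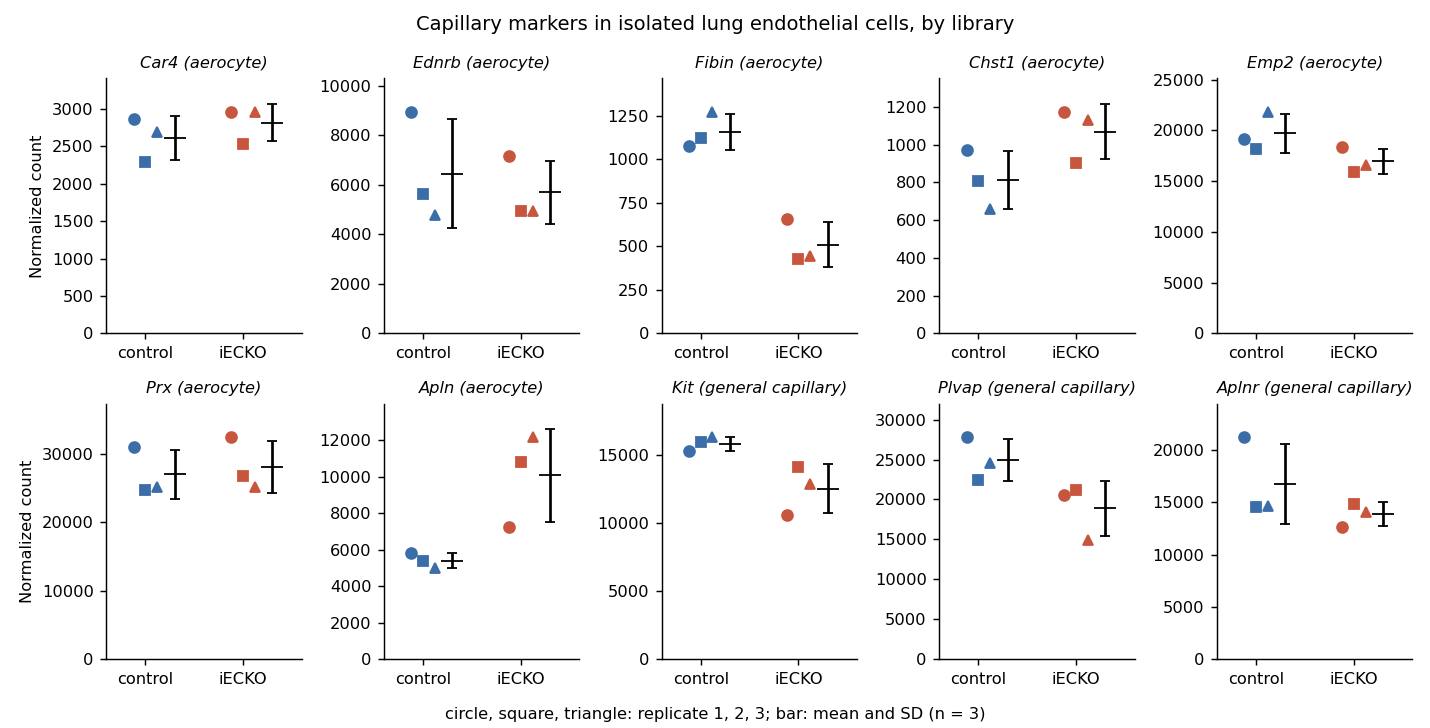
Normalized counts (vertical axes, linear from 0) of the 10 capillary markers in the 3 control (blue) and 3 *Atp6ap2* iECKO (red) libraries, with symbols for replicates and bars for the mean and SD. *Apln* is above and *Fibin*, *Kit* and *Plvap* are below all control libraries in each *Atp6ap2* iECKO library, and the other markers overlap.

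*Apln* encodes the precursor of apelin, a secreted peptide that in the lung is made by aerocytes and elsewhere is known from endothelial tip cells. In GRCm38 it spans positions 48025146 to 48034853 of chromosome X. Its normalized counts were 5810, 5365 and 5015 in control replicates 1, 2 and 3 and 7239, 10818 and 12140 in *Atp6ap2* iECKO replicates 1, 2 and 3. Every *Atp6ap2* iECKO library was above every control library, replicate 1 by the smallest margin. The mean rose from 5396 ± 398.4 to 10066 ± 2536 (SD, n = 3), a ratio of means of 1.87. This is 0.87 on the log2 scale, with an SE of 0.18 and an adjusted *P* value of 0.0284 from limma. The exact two-sided permutation *P* value was 0.1, below which 3 samples against 3 cannot go. A change of at least this size was measured in 8.7% of the genes tested. With the *Xist* covariate the adjusted *P* value was 0.0461, and in the libraries without *Xist* the level was 5015 in the control and 10818 in the *Atp6ap2* iECKO library. The log2 fold change lay between 0.72 and 1.09 when each library was left out in turn, but the adjusted *P* value was below 0.05 in only 1 of these 6 fits, that without *Atp6ap2* iECKO replicate 1 (0.00614). In the other 5 it lay between 0.0504, without control replicate 1, and 0.0995. The genes closest to *Apln* in their centred log2 profile over the 6 libraries, among 11321 genes with a mean of at least 100, were *Nfatc2*, *Fam102b* and *Gnl3*, with root mean square differences of 0.025, 0.089 and 0.10. Transcripts of cycling cells were also higher in the *Atp6ap2* iECKO libraries. Of 6 cycling markers, *Cdk1*, *Birc5*, *Aurkb* and *Top2a* passed and *Mki67* and *Ccnb1* did not. *Top2a* (adjusted *P* = 0.0489 from limma) lost its call with the *Xist* covariate (0.0676) and passed in 1 of the 6 fits that left out a library, whereas *Cdk1* and *Birc5* passed in 3 and *Aurkb* in 2. The summed level of this list was 10636 to 20993 in controls and 24888 to 30691 in *Atp6ap2* iECKO libraries. Their part in the *Apln* result was not tested.

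*Fibin* encodes a secreted protein named for its role in fin bud initiation in fish. It lies on chromosome 2 from 110360917 to 110363183. Its normalized counts were 1075, 1122 and 1273 in control replicates 1, 2 and 3 and 658.0, 426.7 and 442.8 in *Atp6ap2* iECKO replicates 1, 2 and 3. All 3 *Atp6ap2* iECKO libraries were below all controls, again with replicate 1 nearest to them. The mean fell from 1157 ± 103.2 to 509.2 ± 129.1 (SD, n = 3), a ratio of 0.44. On the log2 scale this is -1.21, with an SE of 0.17 and an adjusted *P* value of 0.0108 from limma (exact two-sided permutation *P* = 0.1). A change of this size or more was measured in 4.33% of the genes tested. *Fibin* passed in all 6 fits that left out a library, with log2 fold changes from -1.41 to -1.09, and with the *Xist* covariate (adjusted *P* = 0.019). Markers of stromal cells moved with it. By immunoblot, the study detected the endothelial protein VE-cadherin only in iLECs. It detected αSMA and desmin, the products of *Acta2* and *Des*, in the non-endothelial fraction. The study describes the falls of *Col3a1*, *Pdgfrb* and *Notch3* as changes in endothelial cells. The summed level of 6 fibroblast markers was 41515 to 71020 in controls and 17204 to 21745 in *Atp6ap2* iECKO libraries, with 5 of 6 past the test and a median log2 fold change of -1.52. That of 6 mural cell markers was 11374 to 17075 and 4606 to 6190, with 5 of 6 past the test and a median of -1.53. *Dcn* and *Acta2*, which did not pass, had log2 fold changes of -0.59 and -1.45, and none of the 12 was at 0. The part of stromal cells in the *Fibin* result was not tested.

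*Car4* encodes a carbonic anhydrase anchored to the luminal surface of capillary endothelium and is the most widely used aerocyte marker. It lies on chromosome 11 from 84957786 to 84966044. Its normalized counts were 2868, 2294 and 2687 in controls and 2960, 2527 and 2963 in *Atp6ap2* iECKO replicates 1, 2 and 3. The genotypes overlapped, and replicate 2 was the lowest library of each. *Car4* had a log2 fold change of 0.11 (95% interval -0.14 to 0.36, adjusted *P* = 0.605 from limma).

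*Ednrb* encodes the endothelin B receptor, which binds endothelins at the endothelial surface. The gene is on chromosome 14 between 103814625 and 103844402. Control replicate 1 had the highest normalized count, 8958, against 5619 and 4798 in control replicates 2 and 3. The *Atp6ap2* iECKO libraries had 7182, 4941 and 4952, all within the range of controls. For *Ednrb* the log2 fold change was -0.15 (95% interval -0.70 to 0.40, adjusted *P* = 0.757 from limma), and it was 0.11 without control replicate 1.

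*Chst1*, on chromosome 2 from 92599707 to 92615250, encodes a sulfotransferase that acts on keratan sulfate. Normalized counts were 970.4, 808.4 and 659.5 in controls and 1175, 900.9 and 1133 in *Atp6ap2* iECKO libraries, 2 of which were above all controls. The log2 fold change of 0.40 (95% interval 0.03 to 0.78) did not pass (adjusted *P* = 0.18 from limma).

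*Emp2*, on chromosome 16 from 10281749 to 10313968, encodes a small membrane protein with 4 membrane-spanning segments and is also abundant in alveolar type 1 (AT1) epithelial cells. It had 19128, 18112 and 21831 in controls and 18321, 15930 and 16579 in *Atp6ap2* iECKO libraries, so that control replicate 3 was the highest. *Emp2* had a log2 fold change of -0.21 (95% interval -0.46 to 0.03, adjusted *P* = 0.265 from limma). The summed level of 6 AT1 markers, of which 0 passed, was 8364 to 21889 in controls and 10142 to 12096 in *Atp6ap2* iECKO libraries, and it was also highest in control replicate 3. Their part in the *Emp2* values was not tested.

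*Prx*, on chromosome 7 from 27499324 to 27520214, encodes periaxin, a scaffold protein best known from the myelin of Schwann cells. Normalized counts were 31113, 24781 and 25183 in controls and 32444, 26759 and 25260 in *Atp6ap2* iECKO libraries, with replicate 1 the highest in each genotype. For *Prx* the log2 fold change was 0.06 (95% interval -0.26 to 0.38, adjusted *P* = 0.84 from limma). Among Schwann cell markers, *Pmp2* was listed at 0 in every library and *Sox10* at 0 in 5 libraries and 2.34 in the other.

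**Figure D2:**
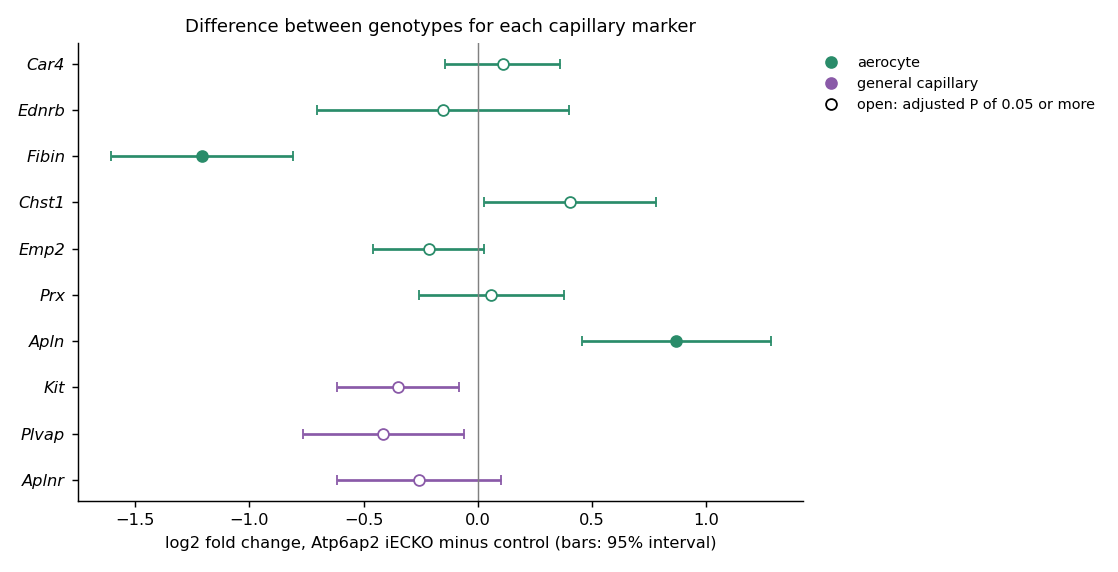
Log2 fold change between *Atp6ap2* iECKO and control iLECs (horizontal axis) with its 95% interval for each aerocyte (green) and general capillary (purple) marker; filled points passed at an adjusted *P* value below 0.05. Only *Fibin* (-1.21) and *Apln* (0.87) are filled, and the 3 general capillary markers lie between -0.41 and -0.26.

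*Kit* encodes the receptor tyrosine kinase for stem cell factor and marks general capillary cells. It lies on chromosome 5 from 75574916 to 75656722. Its normalized counts were 15288, 15978 and 16312 in controls and 10583, 14148 and 12878 in *Atp6ap2* iECKO replicates 1, 2 and 3. All 3 *Atp6ap2* iECKO libraries were below all controls, and replicate 1 was the lowest. The means were 15860 ± 522.5 and 12536 ± 1807 (SD, n = 3), and the log2 fold change was -0.35 (95% interval -0.62 to -0.08), which did not pass (adjusted *P* = 0.115 from limma). *Kit* is also expressed by mast cells. Summed levels of 6 mast cell markers were 14.7 to 27.7 in controls and 45.2 to 64.2 in *Atp6ap2* iECKO libraries, with *Cma1* at 0 in all controls. Of the 6, only 2 were high enough to test, *Cpa3* and *Ms4a2*. Their log2 fold changes of 1.64 and 1.61 did not pass (adjusted *P* = 0.129 and 0.0646 from limma). The part of mast cells in the *Kit* values was not tested.

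*Plvap*, on chromosome 8 from 71497765 to 71511752, had normalized counts of 27769, 22463 and 24586 in controls and 20566, 21168 and 14924 in *Atp6ap2* iECKO libraries. The genotypes did not overlap, and *Atp6ap2* iECKO replicate 3 was the lowest. The means were 24940 ± 2670 and 18886 ± 3444 (SD, n = 3). The log2 fold change of -0.41 (95% interval -0.77 to -0.06) did not pass (adjusted *P* = 0.148 from limma), and without *Atp6ap2* iECKO replicate 3 it was -0.25.

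*Aplnr* encodes the apelin receptor, a G protein-coupled receptor. It lies on chromosome 2 from 85136225 to 85139923. Control replicate 1 had a normalized count of 21231, against 14550 and 14637 in the other controls. The *Atp6ap2* iECKO libraries had 12662, 14898 and 14070, overlapping with the latter. The log2 fold change was -0.26 (95% interval -0.62 to 0.10, adjusted *P* = 0.372 from limma) and -0.08 without control replicate 1. Control replicate 1 also had the highest *Ednrb*, *Prx*, *Plvap* and pan-endothelial marker levels of the controls. With the mean of the pan-endothelial markers set equal in all libraries, the log2 fold changes were -0.24 for *Aplnr*, -0.40 for *Plvap*, -0.33 for *Kit*, -1.19 for *Fibin* and 0.89 for *Apln*, and again only *Fibin* (adjusted *P* = 0.0165) and *Apln* (0.0377) passed.

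The profiles closest to those of 5 further markers were also listed, with root mean square differences in log2 units over the 6 libraries. *Slc31a2* (0.034) was nearest to *Car4*, *Micalcl* (0.068) to *Ednrb*, *Pabpc4l* (0.045) to *Kit*, *Cx3cl1* (0.052) to *Plvap* and *Fnip1* (0.055) to *Aplnr*. None of these nearest genes was itself a member.

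The balance of the capillary types was expressed per library as the mean log2(normalized count + 1) of the 7 aerocyte markers minus that of the 3 general capillary markers. It was -2.02, -2.005 and -2.05 in control replicates 1, 2 and 3 and -1.51, -1.98 and -1.63 in *Atp6ap2* iECKO replicates 1, 2 and 3. Controls lay within a narrow range, and all *Atp6ap2* iECKO libraries were above them, replicate 2 by a small margin. The mean was 0.32 higher in *Atp6ap2* iECKO libraries (SD 0.02 in controls and 0.24 in *Atp6ap2* iECKO libraries, n = 3 each). This score was not tested, since it combines genes chosen together. The mean of the general capillary markers differed by -0.34 and that of the aerocyte markers by -0.02. The summed normalized counts of the aerocyte markers made up 52.1%, 52.3% and 52.5% of those of all 10 in controls and 61.5%, 55.4% and 60.3% in *Atp6ap2* iECKO libraries. The difference in balance was 0.52 without *Fibin*. Without *Apln* it was 0.17, and the genotypes then overlapped, with *Atp6ap2* iECKO replicate 2 below all controls. With *Car4*, *Ednrb* and *Fibin* alone for aerocytes it was -0.08, and the genotypes overlapped (-2.78, -2.83 and -2.83 in controls and -2.54, -3.24 and -2.90 in *Atp6ap2* iECKO libraries). It was 0.38 when both *Apln* and *Fibin* were left out, an alternative chosen after their values were seen.

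**Figure D3:**
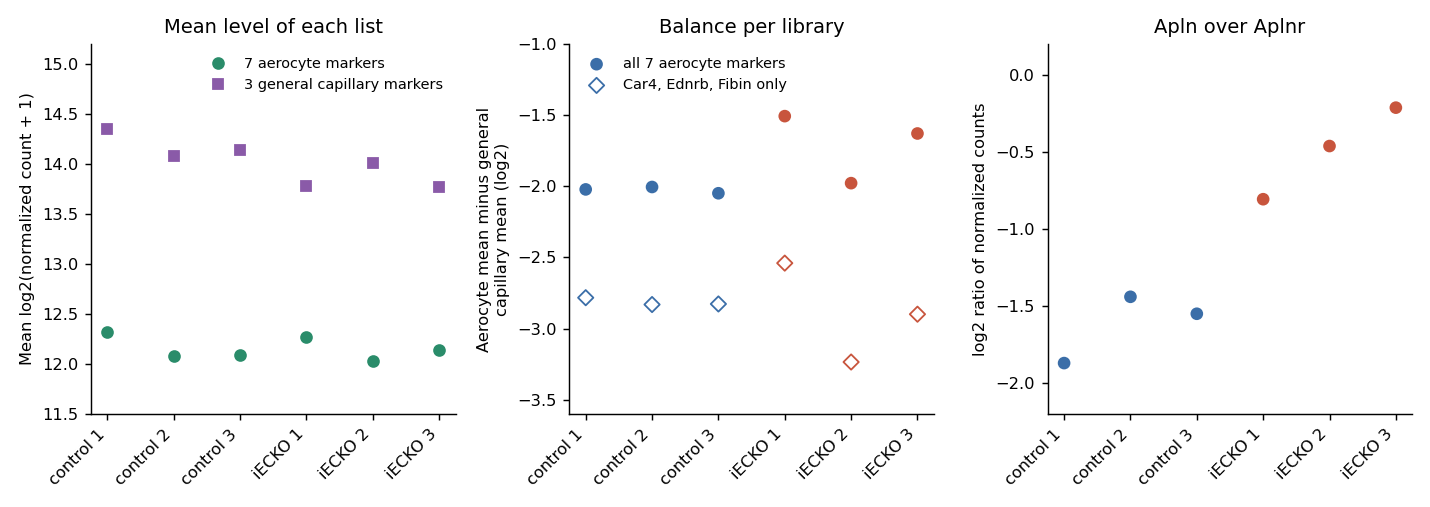
Mean log2 level of the 7 aerocyte and 3 general capillary markers (left), their difference (middle, circles; diamonds use only *Car4*, *Ednrb* and *Fibin* for aerocytes) and the log2 ratio of *Apln* to *Aplnr* (right) in each library, with controls in blue and *Atp6ap2* iECKO in red in the middle and right panels. The balance is -2.05 to -2.005 in the control libraries and -1.98 to -1.51 in the *Atp6ap2* iECKO libraries.

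The apelin ligand and its receptor were set against each other within libraries. The log2 ratio of *Apln* to *Aplnr* was -1.87, -1.44 and -1.55 in controls and -0.81, -0.46 and -0.21 in *Atp6ap2* iECKO replicates 1, 2 and 3. The ratio was therefore higher in every *Atp6ap2* iECKO library than in any control, by 1.13 on average. *Apln* by itself already did not overlap, as was the case for 29.8% of all genes tested. Among other ratios of an aerocyte to a general capillary marker, *Car4* to *Plvap* was also higher without overlap (by 0.52). *Car4* to *Kit* (0.46), *Ednrb* to *Aplnr* (0.10) and *Ednrb* to *Kit* (0.20) overlapped. Of the 8 genes on the list for the apelin pathway, *Apln* alone passed. *Apela*, which encodes another ligand of the receptor, was near the detection limit at 4.71 to 20.6. The inhibitory G protein subunits *Gnai1*, *Gnai2* and *Gnai3*, through which the receptor signals, had log2 fold changes of 0.05, 0.01 and -0.0026, and *Arrb1*, which encodes a β-arrestin, had -0.34 (adjusted *P* = 0.125 from limma).

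Of 7 tested genes on the endothelin list, 1 was lower and 0 higher. *Ednra*, which encodes the endothelin A receptor typical of mural cells, fell from 2231 ± 435.8 to 822.3 ± 53.2 (SD, n = 3), or by 1.42 on the log2 scale (SE 0.15, adjusted *P* = 0.00731 from limma). Its control libraries had 1729, 2463 and 2502 and the *Atp6ap2* iECKO libraries 876.2, 820.6 and 769.9. As given above, mural cell markers were lower in the same libraries. The ligand *Edn1* (log2 fold change -0.34) and the processing enzyme *Ece1* (0.01) did not pass, *Edn2* was too low to test, and *Ece2* was listed at 0. The ligand *Edn3* had 112.8, 147.5 and 303.2 in controls and 112.4, 76.9 and 94.7 in *Atp6ap2* iECKO libraries. Its log2 fold change of -0.87 did not pass either (adjusted *P* = 0.192 from limma).

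None of the 8 genes on the list for Kit signalling passed. *Kitl*, which encodes stem cell factor, had 32790, 27054 and 20121 in controls and 32069, 37109 and 36308 in *Atp6ap2* iECKO libraries, with overlap (log2 fold change 0.43, adjusted *P* = 0.188 from limma). The log2 ratio of *Kitl* to *Kit* was 0.72 ± 0.40 in controls and 1.497 ± 0.105 in *Atp6ap2* iECKO libraries (SD, n = 3), without overlap, so it was higher in each *Atp6ap2* iECKO library than in any control. These values are not per length and do not say which transcript was the more abundant.

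Further genes enriched in each capillary type were taken from lists written by hand, also with earlier results of these data known. Of 4 tested aerocyte-enriched genes, 0 passed. These were *Tbx2*, a T-box transcription factor (log2 fold change -0.22), *Kdr*, the main VEGF receptor (0.17), *Nrp1*, its co-receptor (0.0009), and *Kitl* (0.43). *Rprml*, the other gene on the list, was too low to test, with at most 57.5. Of 7 genes enriched in general capillary cells, 1 was lower and 0 higher, and the median log2 fold change was -0.32. *Glp1r*, which encodes the receptor for glucagon-like peptide 1, had 1913, 1238 and 1627 in controls and 944.5, 981.3 and 892.5 in *Atp6ap2* iECKO libraries, all below controls. It fell by 0.74 on the log2 scale (SE 0.15, adjusted *P* = 0.0285 from limma). *Glp1r* passed in only 2 of the 6 fits that left out a library, where its adjusted *P* value was 0.00942 to 0.107, and it did not pass without the mean-variance trend (0.0824). *Ptprb*, which encodes a phosphatase that restrains the receptor tyrosine kinase TIE2, had 75165, 61489 and 54908 in controls and 46605, 40865 and 32718 in *Atp6ap2* iECKO libraries. Its log2 fold change of -0.68 did not pass (adjusted *P* = 0.0527 from limma). *Hilpda* (-0.56), *Gpihbp1* (-0.32), *Sema3c* (-0.08), *Lpl* (0.19) and *Cd93* (0.29) did not pass either.

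**Figure D4:**
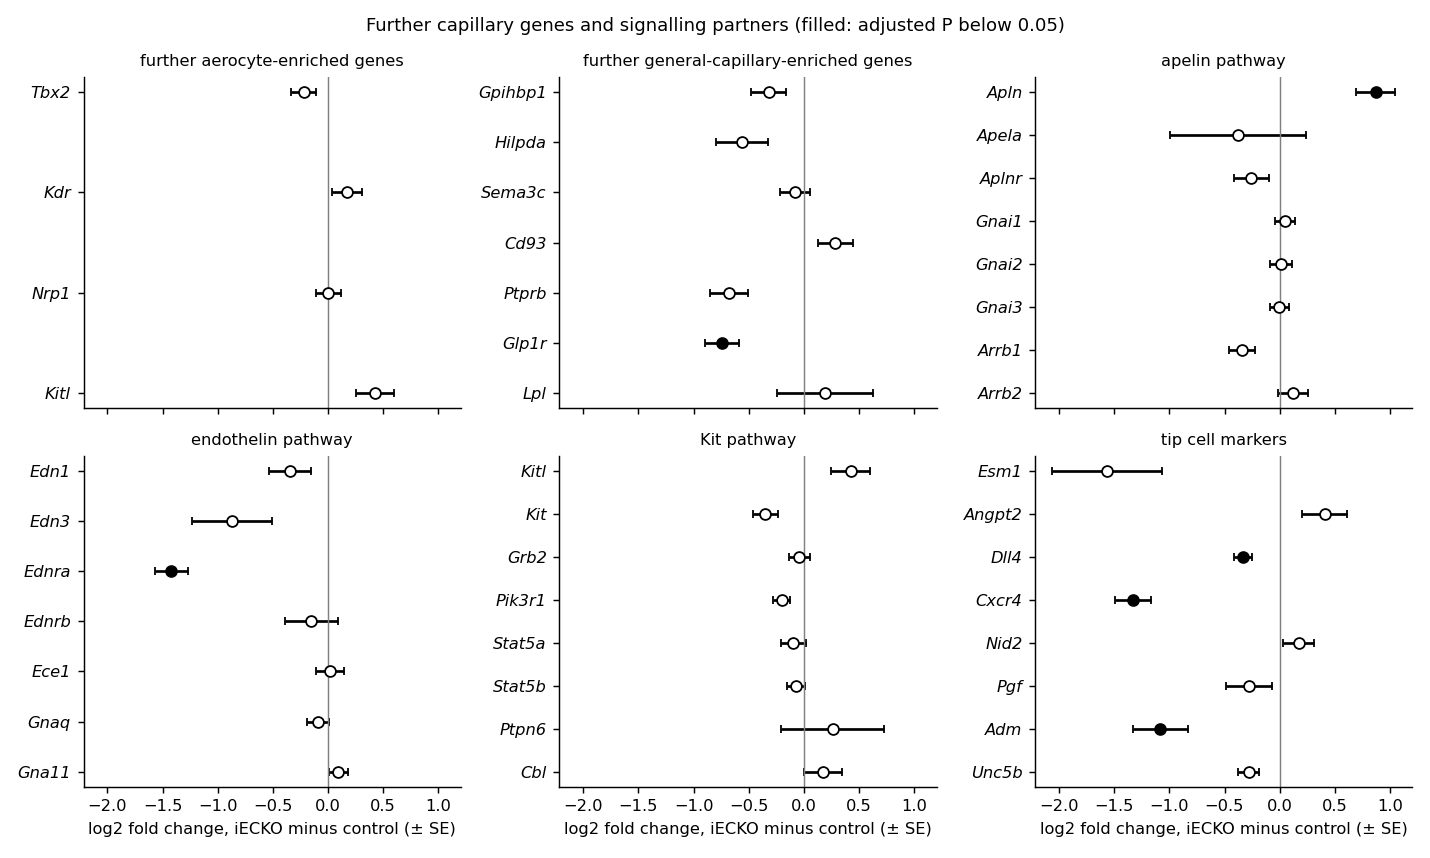
Log2 fold change between *Atp6ap2* iECKO and control iLECs (horizontal axes, bars show the standard error) of the tested genes on 6 lists, with filled points for an adjusted *P* value below 0.05. *Apln*, *Ednra*, *Glp1r*, *Dll4*, *Cxcr4* and *Adm* are filled, and of these only *Apln* is above 0.

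*Apln* is shared between aerocytes and tip cells, the leading cells of vascular sprouts, so 8 other tip cell markers were measured in the same libraries. Of these, 3 passed as lower and 0 as higher, and the median log2 fold change was -0.31. The log2 fold change was below 0 for 6 of the 8 and above 0 for 2. *Cxcr4*, a chemokine receptor, fell by 1.33 on the log2 scale (adjusted *P* = 0.00848 from limma), *Adm*, which encodes adrenomedullin, by 1.08 (adjusted *P* = 0.0396) and the Notch ligand *Dll4* by 0.33 (adjusted *P* = 0.0432). *Cxcr4* passed under all 18 alternative settings of the fit, the 6 that left out a library included. *Adm* and *Dll4* lost their calls with the *Xist* covariate (adjusted *P* = 0.0517 and 0.0947) and passed in 1 and 0 of the 6 fits that left out a library. *Esm1*, with 4151, 1076 and 1669 in controls and 913.2, 808.0 and 388.7 in *Atp6ap2* iECKO libraries, did not pass (log2 fold change -1.57, adjusted *P* = 0.0982). The 2 markers above 0, *Angpt2* (0.41) and *Nid2* (0.17), did not pass either. The part of tip cells in the *Apln* result was not tested.

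Markers of the other vessel types were measured because *Plvap* and *Ednrb* are not restricted to capillaries. Of 7 arterial markers, 4 were lower, *Gja5*, *Gja4*, *Hey1* and *Efnb2*, with log2 fold changes from -1.15 to -0.73, and the summed level was 47343 to 51123 in controls and 26303 to 35429 in *Atp6ap2* iECKO libraries. *Gja5* and *Gja4* passed in all 6 fits that left out a library, *Hey1* in 5 and *Efnb2* in 1. Of 5 tested venous markers, *Nr2f2* was lower (log2 fold change -0.75, adjusted *P* = 0.0104 from limma) and the summed levels overlapped. None of 6 lymphatic markers passed, and their summed levels overlapped as well. Among the 10 pan-endothelial markers, *Tek*, which encodes TIE2, was lower (-0.53, adjusted *P* = 0.0292 from limma), but it lost its call with the *Xist* covariate (0.0548) and passed in 1 of the 6 fits that left out a library. The part of arterial cells in the levels of the capillary markers was not tested.

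**Figure D5:**
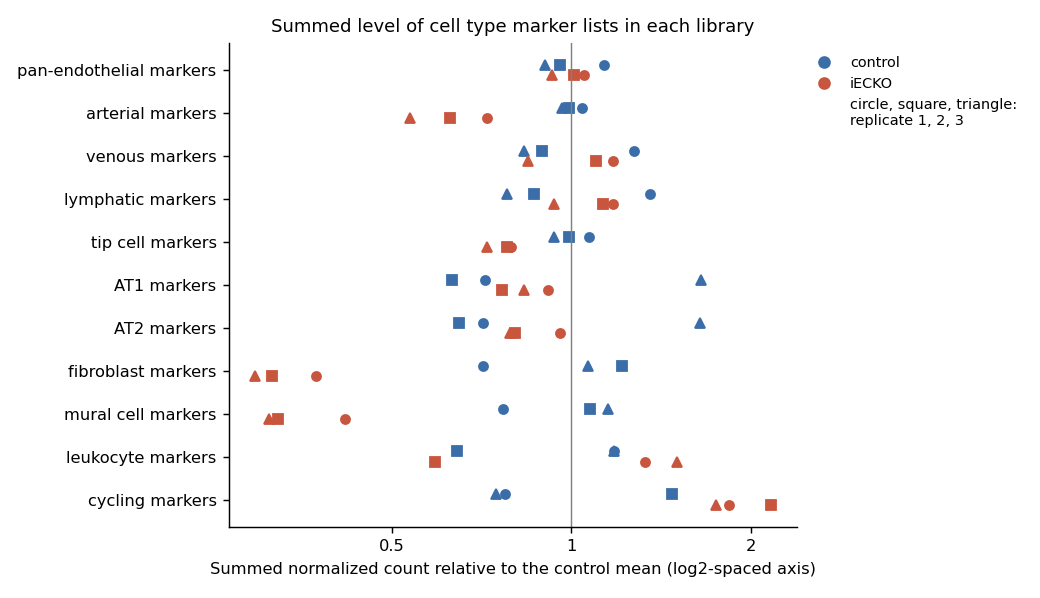
Summed normalized count of each marker list in each library relative to the control mean (horizontal axis, spaced by log2), with controls in blue and *Atp6ap2* iECKO in red. Arterial, tip cell, fibroblast and mural cell lists are below and the cycling list is above all controls in every *Atp6ap2* iECKO library, whereas the pan-endothelial list overlaps (254178 to 319098 in controls, 261111 to 295150 in *Atp6ap2* iECKO).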

How the data were processed

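The authors prepared TruSeq libraries from RNA of CD31-captured cells, aligned reads to mm10 and quantified genes with BaseSpace tools. They deposited a table of values per gene and library, which are a normalized signal (normalized counts). The labels call these raw counts, but whole values are lacking, and every library had a median ratio of 1.0036 to the geometric mean over libraries. Read numbers are therefore unknown, no counting interval is given, and a count model was not used. The annotation used for counting is not given in the sources used here.

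Values were analysed as log2(normalized count + 1), and fold changes are on that scale. Genes reaching 10 in 3 or more libraries (14456) entered a limma fit (version 3.58.1, R 4.3.3) of genotype alone over the 6 libraries, with empirical Bayes variances that follow mean expression. Benjamini-Hochberg adjustment covered all of these genes, and the threshold was 0.05. Single genes were also compared with an exact permutation test (scipy 1.17.1). The fit was tested on simulated data. Exon lengths and coordinates are from GENCODE for GRCm38 (mm10). Levels per kilobase use the union of annotated exons.

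The members and lists were chosen with earlier results of these data known. Named genes were all members, genes of the lists past the threshold (up to 4 per list), and for 6 members the genes with the nearest profile. Other list genes are named to account for a list. Alternatives were other scalings, pseudocounts, filters, variance models and thresholds, a replicate block, an *Xist* covariate and each library left out. Figures were drawn with matplotlib 3.10.9.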

Additional observations from a re-analysis of the deposited data

How the results depend on the processing

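*Fibin* fell at an adjusted *P* value below 0.05 under 17 of 18 alternatives, all but a threshold of 0.01, with log2 fold changes from -1.41 to -1.09. *Apln* had log2 fold changes from 0.72 to 1.09 under the 18 alternatives and passed under 11. The number of members that passed was 1 without limma's mean-variance trend (*Fibin*, with *Apln* at an adjusted *P* value of 0.0861), 0 at a threshold of 0.01 and 1 to 2 with each library left out. The number of all genes that passed, 1193 in the report, was 611 with pan-endothelial marker scaling, 304 without the trend, 767 with the *Xist* covariate, 90 at a threshold of 0.01 and 206 to 983 with each library left out (270 without control replicate 3, and 250 and 206 without *Atp6ap2* iECKO replicates 2 and 3). Library size scaling moved the split from 474 higher and 719 lower to 573 and 599, and moved the median log2 fold change of all genes from 0.0049 to 0.045. The sign changed for *Ednrb* without control replicate 1 (0.11, with a range of -0.341 to 0.11 over the libraries left out) and for *Prx* without control replicate 2 (-3.851e-05) or *Atp6ap2* iECKO replicate 1 (-0.048, with a range of -0.048 to 0.1641). The 8 members that did not pass also did not pass under any alternative, and *Kit* came closest (adjusted *P* = 0.0602). The difference in balance was 0.22 to 0.46 with each library left out, 0.52 without *Fibin* and -0.0776 with *Car4*, *Ednrb* and *Fibin* alone. The causes were not tested.

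Genotypes share replicate numbers. Across genes, the departures of libraries 1, 2 and 3 from the mean of their genotype correlated between genotypes by 0.25, 0.11 and 0.078. Between different numbers, control replicate 3 and *Atp6ap2* iECKO replicate 2 correlated by 0.10, and the remaining values were negative, from -0.208 to -0.0263. Whether the numbers pair the samples is not settled by these values. The main fit was unpaired, as were the t tests of the study. With the replicate block, 1508 genes passed, among them the same 2 members (adjusted *P* = 0.0127 for *Fibin* and 0.0284 for *Apln*).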
